A study of Mus musculus with 4 samples.

Results

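The 32 genes described here encode enzymes and regulators of cholesterol synthesis and fatty acid synthesis in mouse lung cells. They fall into a sterol arm of 19 genes (Hmgcs1, Acat2, Mvk, Pmvk, Mvd, Idi1, Fdps, Fdft1, Sqle, Lss, Cyp51, Msmo1, Nsdhl, Hsd17b7, Ebp, Sc5d, Dhcr7, Insig1 and Srebf2) and a fatty acid arm of 13 genes (Fasn, Acaca, Acly, Scd1, Scd2, Elovl1, Elovl5, Elovl6, Fads1, Fads2, Srebf1, Me1 and Acsl4). They were chosen by symbol from the 22547 features of the count tables, and all 32 symbols were found.

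Cells build cholesterol from acetyl-CoA through the mevalonate pathway, squalene and lanosterol, and they build fatty acids from the same precursor through malonyl-CoA, followed by elongation and desaturation. The membrane-bound transcription factors SREBP2 (gene Srebf2) and SREBP1 (gene Srebf1) drive the 2 arms with some overlap, and the Insig proteins hold both factors in the endoplasmic reticulum when sterols are plentiful. Alveolar type 2 (AT2) cells make the phospholipids of surfactant, whose fatty acids come partly from synthesis inside the cell, whereas flat alveolar type 1 (AT1) cells line the gas exchange surface.

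Single-cell transcriptomes came from 4 samples, each sequenced as 1 library. The mice had the genotype Gramd2creERT2;mTmG, in which a tamoxifen-inducible Cre under Gramd2 control, active in AT1 cells, switches the mTmG reporter from membrane tdTomato to membrane GFP. The day 0 library held GFP-positive cells straight after flow sorting, never cultured. The other 3 libraries, of days 8, 13 and 20, held organoids grown from sorted cells in Matrigel beside MLg, a fibroblast line from mouse lung. The medium was DMEM/F-12 with fetal bovine serum (10%), insulin transferrin and the TGF-beta type I receptor inhibitor SB 431542. Organoids were dissociated with dispase and TrypLE and enriched for epithelium with EpCAM antibody beads, so day 0 differs from the later days in culture, serum, feeder cells and cell isolation at once, and these cannot be told apart. The labels give no age, number of animals or tamoxifen scheme, and they call the molecule nuclear RNA although they describe whole-cell suspensions.

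Barcodes were kept if 500 genes or more were seen and no more than 15% of their UMIs (unique molecular identifiers, each standing for 1 captured transcript) were mitochondrial, which left 7350, 7893, 9311 and 9178 cells at days 0, 8, 13 and 20. Their median depth was 2558.5 UMIs at day 0 and 9527 to 17075 UMIs in culture. Although the samples are labelled alveolar epithelial cells, macrophages made up 24.0, 82.9, 64.1 and 52.7% of the kept cells on the successive days, and the day 0 library also held 1391 endothelial and 898 lymphoid cells. AT2-like cells, defined by Sftpc (surfactant protein C) at 5% or more of a cell's UMIs, numbered 97, 334, 482 and 575. Other epithelium, assigned by epithelial marker genes, numbered 1164, 313, 1301 and 449 cells, macrophages 1763, 6546, 5972 and 4833, and fibroblasts 201, 270, 654 and 1750. Between 19 and 30 barcode sequences were shared by any 2 libraries.

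All 11 further AT2 marker genes were detected in AT2-like cells of every library, and their levels differed between days. Sftpb (surfactant protein B) stood at 7953, 7965, 7443 and 6325 CPM (counts per 1000000 UMIs) on days 0, 8, 13 and 20, and Lamp3, a lamellar body protein, at 1641, 434, 540.0 and 646 CPM. Etv5, a transcription factor of AT2 cells, stood at 450.2, 97.7, 106 and 129 CPM and Hc at 561, 18.3, 51.1 and 102 CPM. Sftpd (surfactant protein D) stood at 2029 CPM in AT2-like cells and 2058 CPM in other epithelium at day 20, whereas on that day the other 10 markers were higher in AT2-like cells. Ager, an AT1 marker, stood at 1216 to 1488 CPM in AT2-like cells over the 4 days and at 7546, 518, 270 and 702 CPM in other epithelium. Col1a1, a collagen gene that marks fibroblasts, stood between 8.87 and 41.9 CPM in AT2-like cells and between 1002 and 1782 CPM in fibroblasts. Macrophage marker genes were higher in the cultured AT2-like cells than at day 0, with the summed list at 368, 1310, 1719 and 1022 CPM, against 10989 to 22544 CPM in macrophages. The median AT2-like cell had at most 0.0457% of its UMIs from that list, and 1, 24, 46 and 32 cells reached 0.5%. Near the Sftpc threshold lay 1, 14, 18 and 15 cells at 4 to 5% and 5, 24, 17 and 11 cells at 5 to 6%. Fibroblasts at day 0 are lung cells, whereas in culture the class can hold both lung cells and the MLg line.

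All levels below are UMIs of a gene summed over the cells of a class in 1 library, scaled to the total of that class (CPM), with exact Poisson 95% intervals that cover counting error only. With 1 library per day there is no replicate check and no p-value. A gene was counted as higher or lower between 2 groups when it differed at least 2-fold, reached 20 CPM on the higher side and had an exact counting interval of the ratio that excluded 1. The kit reads transcripts at their 3′ ends, so a gene's level is compared across cells and days and not with the level of another gene. Sums of an arm, and shares of an arm or a gene, pool UMIs of different genes as counted. They too are to be compared across cells and days.

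In AT2-like cells the fatty acid arm had its highest summed level of the 4 cell classes on every day, and the sterol arm had it on days 0, 8 and 20. The fatty acid arm summed to 6609 CPM (6374 to 6850) at day 0, 11679 CPM at day 8, 9068 CPM at day 13 and 11601 CPM at day 20. The sterol arm summed to 1133 CPM (1037 to 1236) at day 0, 2544 CPM (2504 to 2585) at day 8, 1712 CPM at day 13 and 1755 CPM at day 20. At day 13 the sterol arm was higher in other epithelium, at 1914 CPM, than in AT2-like cells. At day 0 the ciliated cells within other epithelium held 1101 CPM (1053 to 1151) of the sterol arm, an interval that overlaps that of AT2-like cells. The classes were further apart in the fatty acid arm than in the sterol arm. At day 8 the fatty acid arm stood at 5049 CPM in other epithelium, 975 CPM in macrophages and 1246 CPM in fibroblasts, whereas the sterol arm stood at 2286, 1430 and 1919 CPM in the same order. Sterol genes supplied 14.6, 17.9, 15.9 and 13.1% of the UMIs of the 32 genes in AT2-like cells over the 4 days and 40.7, 31.2, 45.6 and 20.8% in other epithelium. They supplied 56.8 to 68.3% in macrophages and 39.2 to 60.6% in fibroblasts. Without Scd1 and Fasn the share was 31.0, 45.8, 42.9 and 39.6% in AT2-like cells and 41.6, 51.8, 56.7 and 38.9% in other epithelium. It was then 59.0 to 71.7% in macrophages and 42.2 to 64.4% in fibroblasts.

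**Figure D1:**
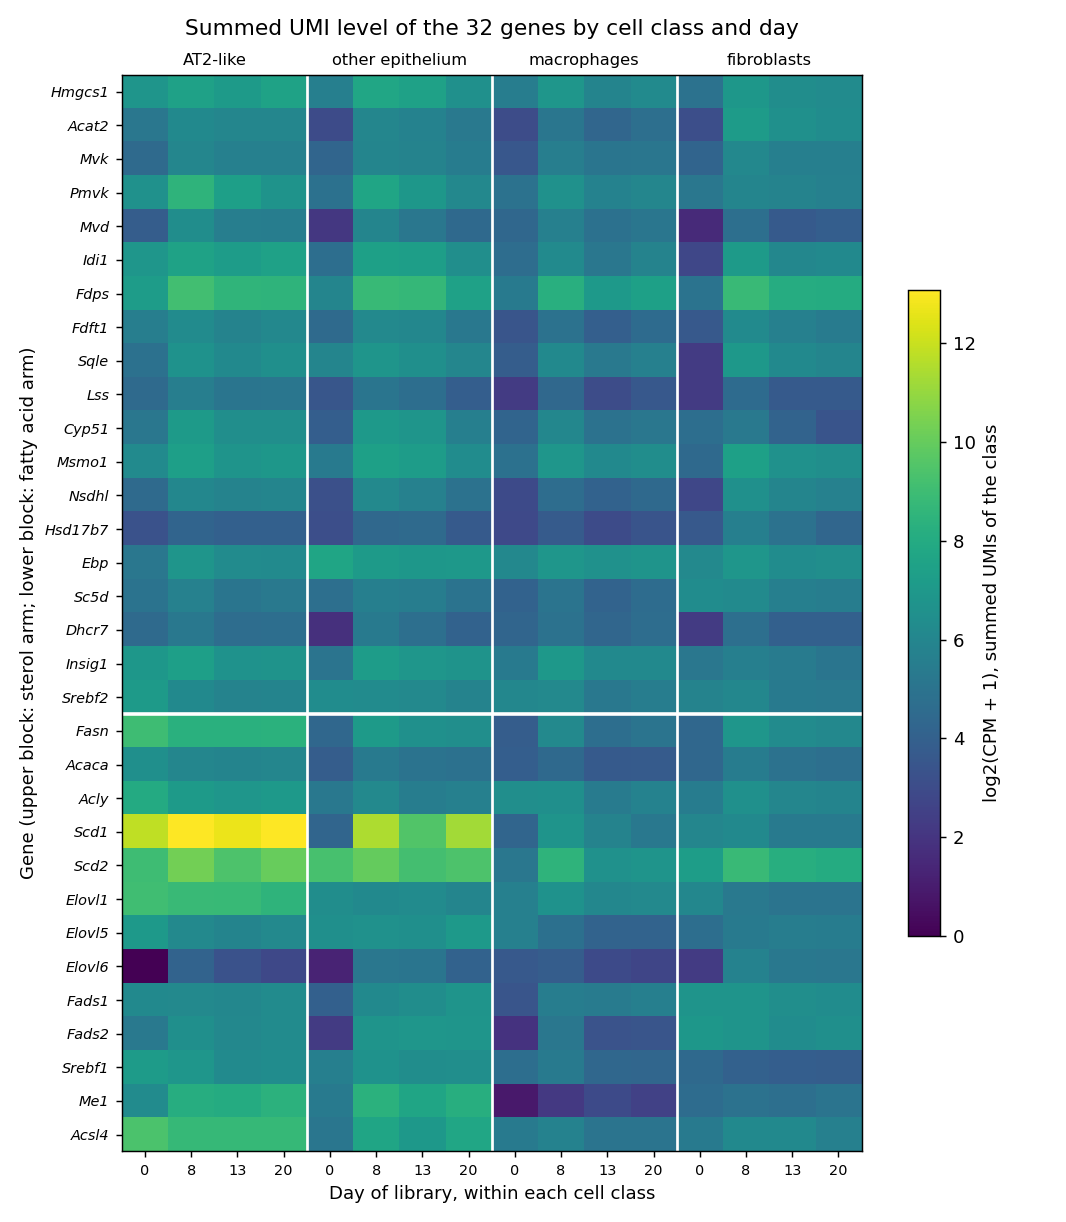
Level of each of the 32 genes, as log2(CPM + 1) of UMIs summed over a cell class, for 4 classes and the 4 days (columns, 1 library per day). The upper block is the sterol arm and the lower block the fatty acid arm, and colours are read along a row. Scd1 stays brightest in AT2-like cells, and most sterol rows are darkest at day 0 within a class.

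**Figure D2:**
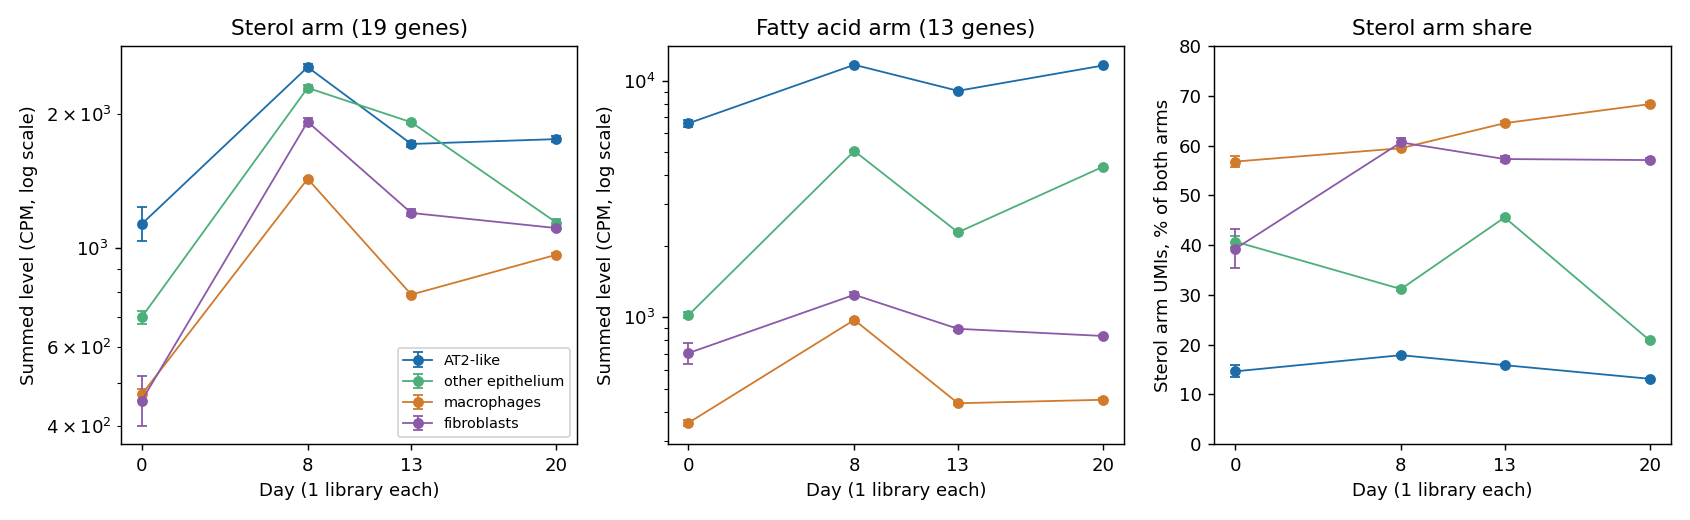
Summed level of the sterol arm (left) and the fatty acid arm (middle), in CPM on log axes, and the percent of the UMIs of both arms that came from sterol genes (right), by day. Points are single libraries per cell class and bars are 95% counting intervals. All 4 classes stand higher at day 8 than at day 0 in both arms, and the sterol share in AT2-like cells stays between 13.1 and 17.9%.

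Fdps, which makes farnesyl diphosphate, Idi1, Hmgcs1 and the later sterol enzymes are known targets of SREBP2, which binds sterol regulatory elements in promoters together with the factors NF-Y and Sp1. The 250 bases before the start sites in RefSeq (GRCm38.p6) were searched on both strands, and 26 of the 32 genes had such a window. Fdps, Fdft1, Sqle, Scd1, Scd2 and Fads1 had none in the table used. The sterol element written TCACNCCAC was found in 1 of the 26 genes, Hmgcs1, against 1.22% of 27025 genes. The NF-Y box CCAAT was found in 15 of 16 sterol genes (all but Acat2) and in 5 of 10 fatty acid genes, against 37.5% of all genes. The Sp1-type GC box GGGCGG was found in 15 of 16 and in 6 of 10, against 35.4%. The windows printed here show the Hmgcs1 element and 1 NF-Y box each of Cyp51, Mvd and Idi1 from the sterol arm and Fasn from the fatty acid arm, written 5′ to 3′ on the strand that carries the motif, with the motif in capitals. They lie at chr13:119690204-119690232, chr5:4104712-4104736, chr8:122443435-122443459, chr13:8885551-8885575 and chr11:120824592-120824616. The Hmgcs1 and Fasn windows are on the plus strand of the chromosome and the other 3 on the minus strand.
Hmgcs1 sterol element: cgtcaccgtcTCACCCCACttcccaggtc
Cyp51 NF-Y box: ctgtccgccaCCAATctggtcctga
Mvd NF-Y box: ggccagcgggCCAATcatatggcag
Idi1 NF-Y box: cccgggctcgCCAATcagctggagg
Fasn NF-Y box: cacatcgaaaCCAATtggacaccga

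Between the sorted cells and day 8 of culture, more of the sterol genes than of the fatty acid genes were counted as higher in AT2-like cells. Of the 19 sterol genes 11 were counted as higher and 0 as lower, where 10.9% of the 6355 features that reached 20 CPM were higher and 22.6% lower. The median log2 ratio over the sterol genes was 1.10, against -0.27 over all those features, and 18 of the 19 ratios lay above 1. Of the 13 fatty acid genes 4 were higher and 0 lower, with a median of -0.18. The day 0 values rest on 511 sterol and 2980 fatty acid UMIs from 97 cells.

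Of the 7 genes of the mevalonate steps, which make isoprenoid units, 5 were counted as higher. Mvd, the decarboxylase that yields isopentenyl diphosphate, stood at 13.3, 82.6, 47.2 and 45.3 CPM on days 0, 8, 13 and 20 and was 6.21-fold higher at day 8 (log2 ratio 2.63, 95% counting interval 1.5 to 4.09). Fdps stood at 146, 545, 379.8 and 361 CPM and was 3.72-fold higher at day 8. Pmvk, phosphomevalonate kinase, stood at 97.6, 357, 164 and 102 CPM, so that it was 3.66-fold higher at day 8 and close to its day 0 level by day 20. Mvk, mevalonate kinase, was 2.89-fold higher at day 8, at 22.2, 64.1, 51.4 and 50.5 CPM. Acat2, which joins acetyl-CoA units, was 2.06-fold higher, at 35.5, 73.2, 63.3 and 62.4 CPM. Hmgcs1, which makes the HMG-CoA that enters the pathway, did not reach 2-fold, at 113, 179.6, 138 and 181 CPM, and neither did Idi1, the isomerase of isopentenyl diphosphate, at 118, 184, 149 and 175 CPM. In all 7 genes the day 0 library was the lowest of the 4.

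Among the squalene and lanosterol steps, Sqle, the oxygenase that forms squalene epoxide, stood at 28.8, 102, 71.6 and 91.6 CPM and was 3.54-fold higher at day 8. Lss, which closes the sterol rings, was 2.15-fold higher, at 22.2, 47.6, 33.2 and 34.0 CPM. Fdft1, squalene synthase, went from 46.6 to 79.2 CPM, short of 2-fold. In the annotation used, Gm43738 overlaps Fdps on the same strand, and on the other strand lie Ctsb over Fdft1, Gm20388 over Mvd, Akap9 over Cyp51, Gm11437 over Acaca, Cdc20 over Elovl1 and Rai1 over Srebf1. Whether the authors' counting used strand is not given, so reads of these pairs may not be told apart. Of the 7 enzymes after lanosterol, 4 were counted as higher. Cyp51, the lanosterol demethylase, stood at 35.5, 139.8, 87.8 and 86.4 CPM and was 3.94-fold higher at day 8 (log2 ratio 1.98, interval 1.27 to 2.79). Ebp, the sterol isomerase, was 3.19-fold higher, Nsdhl, a C4 decarboxylase, 2.97-fold, and Msmo1, a C4 oxidase, 2.22-fold. Hsd17b7, Sc5d and Dhcr7, the enzymes of C4 keto reduction, C5 desaturation and the reduction of 7-dehydrocholesterol, had ratios above 1 whose intervals included 1.

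Neither regulator of the arm was counted between day 0 and day 8. Srebf2 stood at 137 CPM at day 0 and at 73.5, 55.8 and 57.6 CPM in culture, and it was the sterol gene with a ratio below 1 at day 8 (log2 ratio -0.90, interval -1.29 to -0.50). Insig1, whose product retains SREBPs and whose transcript is itself an SREBP target, stood at 122, 164, 100.2 and 105 CPM. Scap, the escort protein of the SREBPs and no member of either arm, was 3.71-fold lower at day 8, at 39.9 and 10.8 CPM. Outside the 19, 2 genes from a list of genes around sterol synthesis and SREBP control were higher at day 8, Acat1 and Tm7sf2. Acat1 was 2.63-fold higher. Tm7sf2, a sterol reductase, went from 2 UMIs (4.44 CPM) to 30.9 CPM (log2 ratio 2.22 with that side set to 3 UMIs, interval 0.93 to 5.86). Acat1 and Tm7sf2 were the only genes counted as higher among the 12 of that list, with Scap the only one counted as lower.

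The 4 fatty acid genes counted as higher at day 8 were the desaturases Scd1, Scd2 and Fads2 and the malic enzyme gene Me1. Scd1, a stearoyl-CoA desaturase that makes monounsaturated fatty acids, stood at 3573, 8351, 6482 and 8600.0 CPM and was 2.34-fold higher at day 8 (log2 ratio 1.22, interval 1.15 to 1.30). It alone supplied 54.1% of the arm's UMIs at day 0 and 71.5 to 74.1% in culture. Scd2, its neighbour on chromosome 19, stood at 512, 1265, 690.4 and 1036 CPM and was 2.47-fold higher. Fads2, the delta-6 desaturase of polyunsaturated fatty acids, was 2.39-fold higher, at 37.7, 90.0, 66.7 and 79.3 CPM, while the fourth desaturase, Fads1 (delta-5), stayed at 64.7 to 79.0 CPM on all 4 days. Me1, malic enzyme, which supplies NADPH, was 3.68-fold higher, at 77.6, 286, 258 and 341 CPM.

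No fatty acid gene was counted as lower at day 8, but 5 had ratios below 1 with intervals that excluded it. Fasn, fatty acid synthase, stood at 515, 317, 308 and 325 CPM (log2 ratio -0.70, interval -0.90 to -0.50). Acly, which cleaves citrate to acetyl-CoA, stood at 257, 139, 115 and 131 CPM (log2 ratio -0.89), and Acaca, acetyl-CoA carboxylase, at 90.9, 63.1, 58.4 and 63.2 CPM. Acsl4, an acyl-CoA ligase that favours arachidonic acid, stood at 665, 427, 427 and 430 CPM, and Elovl5, an elongase of polyunsaturated chains, at 131, 69.8, 57.6 and 69.8 CPM. In these 5 genes day 0 was the highest library and the 3 culture days lay close together, and none of the 5 was counted as lower at day 8. Srebf1 stood at 144, 115, 76.4 and 81.3 CPM and Elovl1, an elongase of long saturated chains, at 532, 471, 455 and 359.8 CPM. Elovl6, which elongates palmitate, had 0 UMIs at day 0 and 17 CPM at day 8, below the 20 CPM needed to be counted. Without Scd1 and Fasn the arm summed to 2522, 3012, 2278 and 2676 CPM.

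**Figure D3:**
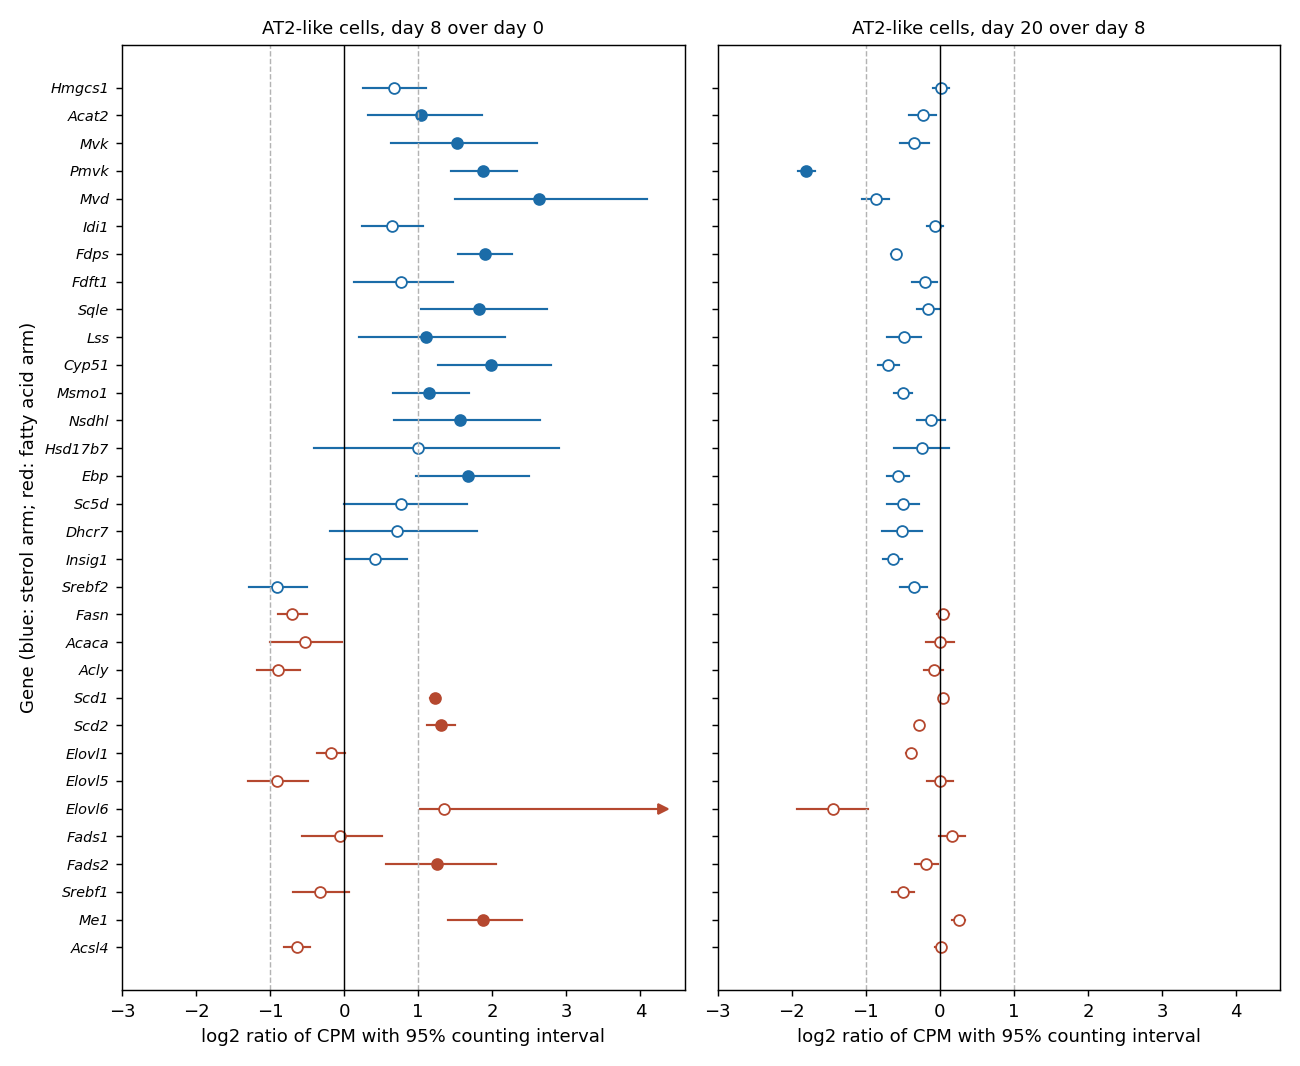
log2 ratio of CPM in AT2-like cells, day 8 over day 0 (left) and day 20 over day 8 (right), with 95% counting intervals. Each row is 1 gene, blue for the sterol arm and red for the fatty acid arm; filled points met the 2-fold rule, dashed lines mark 2-fold, and the arrow marks an interval with no upper end because Elovl6 had 0 UMIs at day 0 (its point is placed with 3 UMIs). On the left 11 sterol and 4 fatty acid genes are filled, on the right only Pmvk.

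Within culture Pmvk was the only member counted in AT2-like cells, although the summed sterol arm went from 2544 CPM at day 8 to 1755 CPM at day 20. The fatty acid arm stood at 11679 and 11601 CPM on these days. From day 8 to day 20, 1 of 19 sterol genes (Pmvk, 3.48-fold lower) and 0 of 13 fatty acid genes were counted, where 4.50% of 5403 features were lower and 3.00% higher. The sterol median was -0.49 and 18 of 19 sterol ratios lay below 1, whereas the fatty acid median was 0.00 and the median of all features -0.10. Next to the rule lay Mvd, from 82.6 to 45.3 CPM, and Elovl6, from 17 to 6.24 CPM. From day 8 to day 13 Pmvk was again the only gene counted (2.17-fold lower, where 1.73% of features were lower and 1.49% higher), with medians of -0.52 for the sterol and -0.27 for the fatty acid arm. From day 13 to day 20 none of the 32 genes was counted, where 1.78% of features were higher and 2.16% lower, and the medians were 0.05 and 0.18.

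Within the AT2-like cells of a library, the fatty acid arm, in CPM of all UMIs, was higher in cells with more Sftpc. The sterol arm on this scale had no such order at days 13 and 20. At day 20 the fatty acid arm stood at 8010 CPM in the 62 cells with 5 to 10% Sftpc, 11241 CPM in the 197 cells with 10 to 20% and 12547 CPM in the 316 cells above 20%, while the sterol arm stood at 1629, 1839 and 1726 CPM. Without Scd1 and Fasn the fatty acid arm stood at 2070, 2767 and 2737 CPM over these ranges at day 20 and at 2040, 2336 and 2369 CPM at day 13, so that the upper pair of ranges differed little without these genes. At day 13 the fatty acid arm stood at 6960 CPM (6844 to 7077), 9229 and 10584 CPM over the same ranges and the sterol arm at 1777, 1770.0 and 1537 CPM. At day 8, with too few cells above 20%, the fatty acid arm stood at 10437 and 11694 CPM and the sterol arm at 2506 and 2589 CPM. Of the AT2-like cells, 0, 16.2, 7.88 and 3.13% were cycling on the 4 days, and at day 8 none of the 32 genes was counted between cycling and other AT2-like cells, where 7.33% of 5729 features were higher and 1.85% lower. The summed fatty acid arm at day 8 stood at 8914 CPM (8734 to 9097) in the 54 cycling cells and 12270 CPM (12172 to 12368) in the others. The sterol arm stood at 2690 and 2513 CPM in the same order. Cells with 2 to 5% Sftpc, outside the class, held 7863, 6412 and 5350 CPM of the fatty acid arm at days 8, 13 and 20. The cells were gated on Sftpc, so these ranges share the measure of the gate. Sftpc also counts in the totals, at 7.17, 15.2 and 25.2% of UMIs over the 3 ranges at day 20. This lowers the CPM of every other gene in the upper ranges. The order of the sterol arm, or its lack, therefore cannot be told apart from this scaling. Across cells thinned to 2000 UMIs, the Spearman correlation between the 2 arms was 0.25, 0.17 and 0.20 at days 8, 13 and 20 (327, 478 and 563 cells), beside 0.34, 0.27 and 0.26 between 2 subsets of the sterol arm and 0.50, 0.39 and 0.41 between 2 subsets of the fatty acid arm; the thinned cells had a median of 3 to 5 sterol UMIs, so these are weak descriptions within single libraries.

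Compared with macrophages of the same library, AT2-like cells were higher in 10 to 12 of the 13 fatty acid genes and in 7 to 13 of the 19 sterol genes, depending on the day. At day 8, 10 of 13 fatty acid genes and 7 of 19 sterol genes were counted as higher and none of the 32 as lower, where 15.6% of 6429 features were higher and 22.8% lower; the medians were 1.60 and 0.68, against -0.26 over all features. Scd1 stood at 8351 CPM against 109.6 CPM, 76.2-fold higher. Me1 stood at 286 against 3.56 CPM, Acsl4 at 427 against 55.4 CPM (7.70-fold), Elovl1 at 471 against 102 CPM (4.63-fold) and Fasn at 317 against 69.8 CPM (4.54-fold). The counted sterol genes were Pmvk (3.66-fold), Nsdhl (2.70-fold), Fdft1 (2.69-fold), Idi1 (2.44-fold), Lss (2.33-fold), Acat2 (2.15-fold) and Cyp51 (2.15-fold). If free RNA carried macrophage transcripts into AT2-like cells at the ratio of the macrophage marker list, 145 of the 2544 sterol CPM would come with it; by gene the largest share was that of Ebp, 11.5 of 113 CPM. In the other direction Sftpc in macrophages, at 0.129 to 0.436% of its AT2-like level, would bring 26.5 of the 109.6 CPM of Scd1 at day 8 and 28.3 of 57.2 CPM at day 13.

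The same comparison on the other days gave 12, 11 and 11 fatty acid genes higher at days 0, 13 and 20, and 13, 9 and 8 sterol genes, with none lower; 19%, 17.1% and 15.7% of features were higher and 24.5, 22.6 and 26.1% lower. The fatty acid medians were 3.39, 2.79 and 2.36 and the sterol medians 1.29, 1.14 and 0.72. Fasn was 38-fold higher in AT2-like cells at day 0, 4.54-fold at day 8, and 12- and 10.4-fold at days 13 and 20. Compared with fibroblasts at day 8, 7 fatty acid and 5 sterol genes were higher, where 14.5% of 6750 features were. Elovl6 (17 against 53.6 CPM) and Hsd17b7 (17.7 against 48.8 CPM) were lower, in a comparison where 27.7% of features were. Elovl1, at 471 against 38 CPM, was 12.4-fold higher, and Srebf1, at 115 against 15.8 CPM, 7.29-fold.

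**Figure D4:**
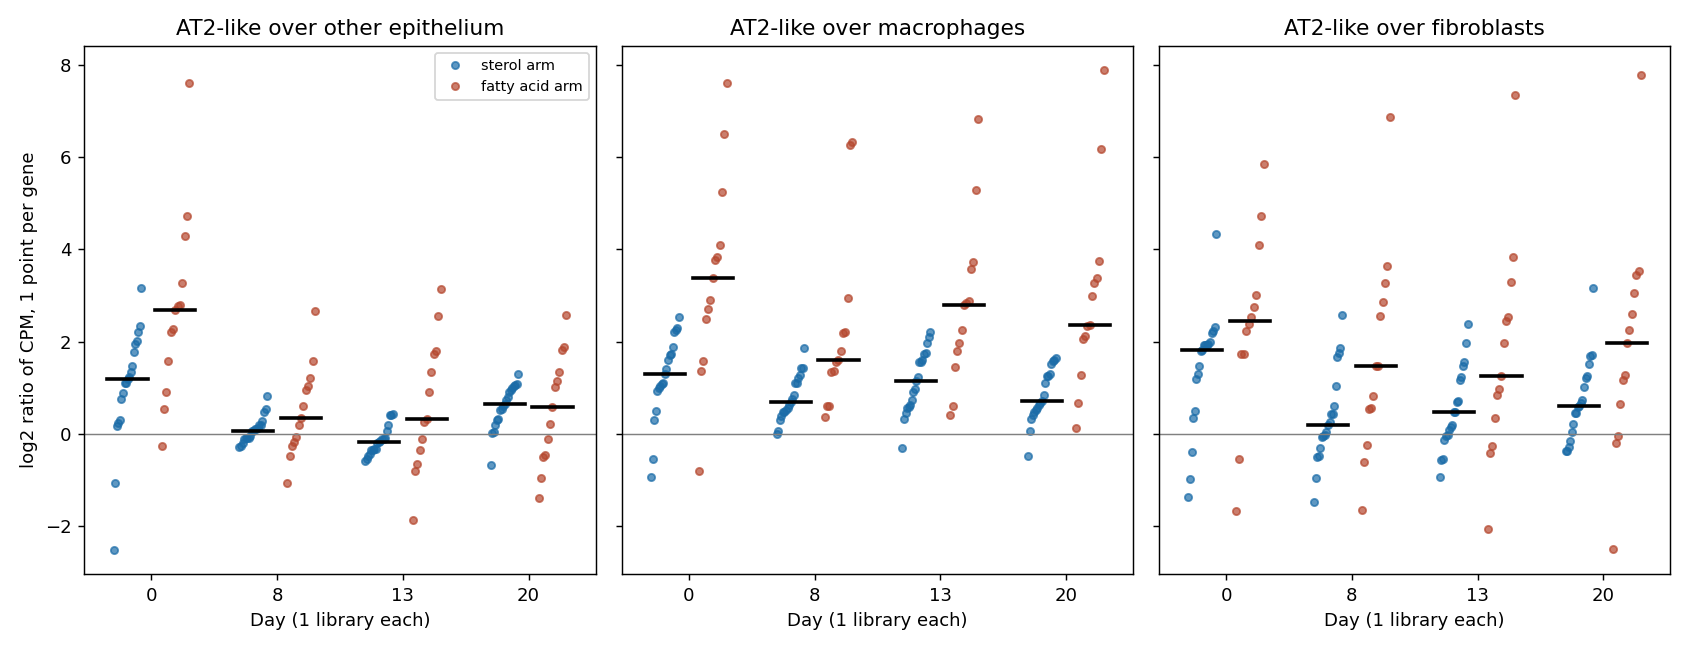
log2 ratio of CPM in AT2-like cells over other epithelium, macrophages and fibroblasts of the same library, by day. Each point is 1 gene (blue, sterol arm; red, fatty acid arm), placed in rank order, with a black bar at the median of the arm; a side under 3 UMIs is set to 3, which places Elovl6 at day 0 over other epithelium at 2.21 although it had 0 UMIs in AT2-like cells. Over macrophages the fatty acid median is 1.60 or more on every day and the sterol median 0.68 to 1.29.

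Against other epithelium of the sorted cells, 10 of 19 sterol genes were counted as higher in AT2-like cells and 2 as lower, with a median of 1.19, where 10.1% of 7380 features were higher and 22.7% lower. Dhcr7 (8.97-fold), Acat2 (5.06-fold), Idi1 (4.6-fold), Insig1 (3.87-fold) and Pmvk (3.43-fold) were furthest above among the genes counted. Dhcr7 stood at 22.2 against 2.47 CPM, just over the 20 CPM needed, so its ratio and rank rest on few UMIs. Ebp, at 35.5 against 204 CPM, and Sqle, at 28.8 against 60.0 CPM, were lower. At day 8, 0 of 19 sterol genes were counted in either direction, with a median of 0.07 (3.84% of 6008 features higher, 8.82% lower), and at day 13 again 0 were counted, with a median of -0.17. The AT2 marker list summed to 10780 CPM in other epithelium at day 8, against 1373 CPM at day 0. In AT2-like cells it summed to 44686 CPM at day 8. Free AT2-like RNA, at the ratio of Sftpc, would bring 135 of the 2286 sterol CPM of other epithelium at day 8. It would bring 443 of the 2783 CPM of Scd1. How far AT2 transcripts in this class account for the ratios was not tested. Of the fatty acid genes at day 8, Elovl1 (6.36-fold), Scd1 (3.00-fold), Fasn (2.32-fold) and Acsl4 (2.06-fold) were higher in AT2-like cells and Elovl6 was lower, at 17 against 35.6 CPM. The 4 higher genes were also higher at day 0, and at days 13 and 20, where 5.83 and 4.80% of features were, and Elovl1 kept nearly the same ratio throughout, 6.41-, 5.92- and 5.99-fold. Further fatty acid genes stood more than 2-fold above other epithelium. At day 0 they included Acly (257 against 36.9 CPM), Acaca (90.9 against 13.4 CPM) and Srebf1 (144 against 48.4 CPM). On that day Scd2 stood below, at 512 against 615 CPM, and Elovl6 had 0 UMIs in AT2-like cells. At day 20 they included Acly (131 against 51.4 CPM) and Acaca (63.2 against 28.5 CPM), while Elovl5, Elovl6, Fads1, Fads2 and Srebf1 stood below. At day 20, 4 sterol genes (Mvd, Fdps, Lss and Nsdhl) were 2.07- to 2.45-fold higher in AT2-like cells.

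Other epithelium is a mixture that changed between libraries. At day 0 it held 562 AT1-like and 474 ciliated cells and 83 airway secretory cells by their marker lists; in culture airway secretory cells numbered 91, 658 and 343, AT1-like cells 70 and 80 at days 8 and 13, and basal-like cells 362 at day 13. Over the whole class, 15 of 19 sterol and 9 of 13 fatty acid genes were higher at day 8 than at day 0, with medians of 2.11 and 2.28, where 13.9% of 7472 features were higher and the median was -0.24. Not counted were Sqle, Ebp, Sc5d and Srebf2 of the sterol arm and Acly, Scd2, Elovl1 and Elovl5 of the fatty acid arm. The change in makeup is part of those ratios, so levels within the sub-classes follow. In airway secretory cells the sterol arm stood at 323 CPM (294 to 355), 2198, 1815 and 1084 CPM over the 4 days and the fatty acid arm at 266, 4495, 2411 and 4292 CPM. In AT1-like cells the sterol arm stood at 574, 2284 and 2076 CPM and the fatty acid arm at 2228, 6910 and 5160 CPM at days 0, 8 and 13.

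The 2 stearoyl-CoA desaturases behaved differently in the AT1-like cells. Scd2 stood at 1665 CPM (1602 to 1730) at day 0 and at 1195 and 762 CPM at days 8 and 13. Scd1 stood at 15.3 CPM (9.79 to 22.7) at day 0 and at 4429 and 3028 CPM at days 8 and 13. AT1-like cells of the sorted lung thus held Scd2 at a level above that of AT2-like cells of the same library (512 CPM) and Scd1 far below theirs (3573 CPM). In culture the AT1-like cells also carried more Sftpc, 1.49 and 0.692% of their UMIs at days 8 and 13 against 0.0258% at day 0, and less Ager, at 2285 and 5501 CPM against 23190.4 CPM. How far these cells or their free RNA account for the Scd1 level was not tested. Ciliated cells at day 0 had the highest sterol share of the sorted epithelium, at 65.9% of the UMIs of the 32 genes, with Ebp at 368 CPM and Sqle at 127 CPM against 134 and 12.1 CPM in AT1-like cells. Basal-like cells at day 13 stood at 2089 CPM in the sterol arm and 1090 CPM in the fatty acid arm, with Scd1 at 77.8 CPM.

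From day 8 to day 20 the sterol arm of other epithelium was lower while the fatty acid arm largely was not. Of 19 sterol genes 9 were counted as lower, with a median of -0.95, and of 13 fatty acid genes 1, with a median of -0.21, where 4.45% of 6200 features were lower and the median of all was -0.02. Pmvk stood at 28.4, 202, 121 and 67.5 CPM over the 4 days and was 2.99-fold lower at day 20 than at day 8. Fdps stood at 61.8, 449, 424 and 175 CPM, and Cyp51 at 14.0, 135, 111 and 49.6 CPM. Hmgcs1, Mvd, Lss, Msmo1, Nsdhl and Dhcr7 were 2.14- to 2.80-fold lower, and Elovl6 was the fatty acid gene, at 35.6 and 16.4 CPM. Scd1 stood at 18.3, 2783, 732 and 2451 CPM, so its level at day 13 was 3.80-fold below that at day 8 (2.10% of features lower) and 3.35-fold below that at day 20 (3.41% of features higher at day 20).

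In macrophages both arms were highest at day 8. Between days 0 and 8, 14 of 19 sterol genes and 5 of 13 fatty acid genes were higher and none lower, where 10.1% of 6606 features were higher and 20.8% lower; the medians were 1.64 and 1.0, against -0.12. The 5 sterol genes not counted were Hsd17b7, Ebp, Sc5d, Dhcr7 and Srebf2. Fdps stood at 39.5, 302, 129.8 and 168 CPM and was 7.64-fold higher at day 8. Scd2 stood at 35.8, 362, 97.3 and 107 CPM (10.1-fold), Fads2 at 2.76, 35.1, 9.05 and 9.94 CPM (12.7-fold), Scd1 at 18.4, 109.6, 57.2 and 36.3 CPM (5.96-fold), Fasn at 13.5, 69.8, 25.8 and 31.3 CPM (5.15-fold) and Fads1 at 9.72, 46.2, 42.7 and 49.8 CPM (4.75-fold). Fads1 thus stayed near its day 8 level when the other 4 came down. Elovl5 was the fatty acid gene with a ratio below 1, at 50.5 and 27.6 CPM. From day 8 to day 13, 6 sterol genes (Hmgcs1, Idi1, Fdps, Fdft1, Lss and Cyp51) were 2.01- to 2.86-fold lower and 4 fatty acid genes (Fads2, Scd2, Fasn and Acly) 2.18- to 3.88-fold lower, where 6.32% of 5763 features were. The share of cycling macrophages was 4.99, 30.1, 4.34 and 7.64% on the 4 days. The sterol arm stood at 486, 1472, 1001 and 1070 CPM in cycling macrophages over the 4 days and at 470, 1409, 773 and 956 CPM in the others. At day 8 none of the 32 genes was counted between cycling and other macrophages (4.74% of 5714 features higher, 0.193% lower). At day 13 Acat2 (3.48-fold) and Fads2 (3.15-fold) were higher in cycling macrophages, where 7.45% of features were, and at day 20 Acat2 was 2.31-fold higher and Mvd 2.03-fold lower, where 7.29% were higher and 1.35% lower. By day 20, 0 sterol and 5 fatty acid genes (Fasn, Scd1, Scd2, Fads2 and Srebf1) were lower than at day 8, where 5.51% of 5882 features were, and the sterol arm supplied 68.3% of the UMIs of both.

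In fibroblasts 13 sterol and 5 fatty acid genes were higher at day 8 than at day 0, where 12.5% of 7514 features were, with medians of 2.07 and 0.65 against -0.17. The fatty acid genes were Fasn, Acaca, Acly, Scd2 and Elovl6, and the sterol genes not counted were Pmvk, Cyp51, Ebp, Sc5d, Insig1 and Srebf2. The day 0 cells come from the lung and gave 235 sterol UMIs in all. Idi1 stood at 5.82, 137, 66.1 and 73.3 CPM, Acat2 at 7.76, 143, 93.2 and 80.2 CPM, and Fdps at 31.1, 457, 275 and 265 CPM. Scd1 did not share in this, at 62.1 and 71.9 CPM, nor did Fads1, at 106.7 and 107 CPM, or Fads2, at 120.3 and 106.7 CPM. From day 8 to day 20 Cyp51 (38.5 to 9.60 CPM), Hsd17b7 (48.8 to 19.2 CPM), Sqle (126 to 61.3 CPM) and Msmo1 (174 to 86.3 CPM) were lower and no fatty acid gene was, where 1.46% of 6045 features were lower, with medians of -0.83 and -0.49. Cells of the cultures that met no marker list, 339, 562 and 1159 at days 8, 13 and 20, had the highest sterol levels of any group described here, at 3210, 2262 and 2046 CPM, with 75.2 to 76.5% of the UMIs of both arms. At day 20 the sterol arm stood at 1841 CPM in the 116 cycling fibroblasts and 1035 CPM in the others. Of the cells that met no list 47.8, 40.0 and 46.9% were cycling, and their fibroblast list summed to 1838 to 2092 CPM, against 11524 to 13272 CPM in fibroblasts.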

How the data were processed

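The deposited tables hold raw UMI counts per gene and barcode for 4 libraries, 1 per day; the authors made them with Cell Ranger 7.0.1 on mm10, per the submitters' processing notes. Not given in the sources used here are the annotation, any free-RNA correction or doublet removal, and how reads shared by related genes such as Scd1 and Scd2 were counted.

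Cells with at least 500 genes and at most 15% mitochondrial UMIs were kept. AT2-like cells had Sftpc at 5% or more of UMIs. Each other cell took the marker list, of 8, with the largest share of its UMIs, if at least 0.5% and 2 times the next; cells with several lists were left out as mixed, and no doublet caller was run. The epithelial sub-classes took the largest of their own marker lists. Cycling cells had 0.1% or more of UMIs from a cycling list. UMIs were summed per class and library and scaled to CPM. Ratios carry exact conditional Poisson 95% intervals, with a side under 3 UMIs set to 3. The rule was run on simulated Poisson counts for AT2-like cells, day 8 over day 0. It recovered 100% of genes with true log2 ratios of 2 and 3, and 86 and 89.6% at -2 and -3. Of 5713 unchanged genes, 96 were called. The simulation held no variation between libraries or cells, so it cannot show how the rule fares with such variation. There were no replicates and no tests. Members, lists and rules were chosen with earlier results of these data known; members counted under the rule and those nearest to it were named, and from other lists up to 3 genes per main comparison. The sub-class, free-RNA and promoter values and the genes named beyond that rule were chosen after the values were seen. Python 3.11.15, NumPy 2.4.6, SciPy 1.17.1 and pandas 2.3.3 were used. One gene of a further list is not reported here. In all, 16 alternatives were tried.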

Additional observations from a re-analysis of the deposited data

How the results depend on the processing

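Over 16 alternatives, 1 of them (fibroblast list at 0.1%) chosen after seeing the data, 542 of 576 recomputed values stayed close (a ratio or median within the counting interval of the reported one, a count within 1.5 times), 34 moved and 0 reversed. Within that, for AT2-like cells from day 0 to 8 the sterol count ran from 10 to 15 and the fatty acid median from -0.38 to -0.03; from day 8 to 20 the fatty acid median, reported as 0.00, ran from -0.18 to 0.16. No paired analysis was possible because each day has 1 library; for the same reason no replicate could be left out. With Sftpc at 2%, the fatty acid median of macrophages from day 8 to 13 was -1.0 and 1 fatty acid gene of fibroblasts was lower from day 8 to 20 (also 1 with no cell filter). With Sftpc at 10% that median was -0.79, and 1 sterol gene of AT2-like cells was lower from day 0 to 8. Totals without surfactant, Scgb1a1, lysozyme and mitochondrial genes gave AT2-like cells a fatty acid median of 0.16 and 1 lower fatty acid gene from day 8 to 20 (1 also at 5 CPM), and AT2-like over macrophages medians of 0.98 (sterol) and 1.89 (fatty acid). Scaling by the median ratio gave 0.09 for the first median, 0.90 and 1.82 for the last pair, and 3 lower sterol genes in macrophages from day 8 to 13. With it the median of all features moved from -0.27 to -0.08 for AT2-like cells from day 0 to 8 (sterol median 1.25) and from -0.26 to 0.00 over macrophages. Mean per-cell shares gave 1.95 for AT2-like over macrophages (fatty acid), -1.06 for macrophages from day 8 to 13 (fatty acid) and 2 lower sterol genes in fibroblasts from day 8 to 20, as did a marker threshold of 0.25% (2) and 50 CPM (2). At 1.5-fold the counts were 1 sterol and 4 fatty acid genes lower in AT2-like cells from day 0 to 8, 5 sterol genes lower from day 8 to 20, 11 sterol genes higher over macrophages, 15 sterol and 10 fatty acid genes lower in macrophages from day 8 to 13, and 15 and 6 lower in fibroblasts from day 8 to 20. The 97 AT2-like cells at day 0, with 450916 UMIs, set the widest intervals.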

Other observations

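Genes around the 2 arms in AT2-like cells were read from 5 further lists. Among 9 genes of cholesterol efflux and storage, Lipa, the lysosomal lipase, was 5.26-fold higher at day 8 than at day 0 and 4 were lower, where 10.9% of all features were higher and 22.6% lower. Lipa stood at 58.4 CPM in AT2-like cells at day 8, and free RNA from macrophages at the ratio of their marker list would bring 59.1 CPM. Apoe, a lipid carrier, stood at 328, 12.9, 444 and 165 CPM in AT2-like cells on days 0, 8, 13 and 20. It moved the same way in macrophages, at 1173, 34.1, 7220.0 and 4215 CPM, and at the same ratio macrophage RNA would bring 39.3, 3.45, 580 and 191 CPM of it. Abca1, the cholesterol exporter, stood at 8.87, 14.5, 28.9 and 45.3 CPM in AT2-like cells and was 3.13-fold higher at day 20 than at day 8, with 2.49, 5.28, 19.6 and 8.31 CPM by that ratio. The ratios of day 8 over day 0 had a median of 0.06 over this list.

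Against the same shares of all features, 0 of 13 genes of phospholipid and triglyceride synthesis were higher and 3 lower at day 8, so the lower count is near the background: Chka, choline kinase, at 322 and 86.8 CPM, Lpin2, a phosphatidate phosphatase, at 184 and 68.1 CPM, and Lpcat1, which makes the dipalmitoyl phosphatidylcholine of surfactant, at 1224 and 531 CPM. Their list's median was -0.52, against -0.27 over all features. Of 15 further fatty acid synthesis genes 3 were higher (Acsl3, 3.69-fold, Acacb and Hacd2) and 2 lower. Of 18 genes of fatty acid uptake and oxidation, 3 were higher and 3 lower; Cd36, a fatty acid carrier of the cell surface, stood at 947 and 205 CPM at days 0 and 8, and Fabp5, a fatty acid binding protein, at 1508 and 4127 CPM, of which macrophage RNA would bring 17.7 and 497 CPM.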
